A study of Schizosaccharomyces pombe with 15 samples.

Results

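Among 851 regions that carried a Scr1 peak in both replicates of Wilmar-P grown in molasses, 382 (44.9%) overlapped no peak of the laboratory strain in molasses and no peak of Wilmar-P in glucose. These 382 molasses-alone regions of Wilmar-P are described here. Of the 851, 418 (49.1%) had no laboratory peak and 561 (65.9%) had no glucose peak. The 382 were chosen by presence and absence in the peak lists: peaks of the Wilmar-P molasses replicates were merged where they shared at least 1 bp, regions with a peak of both replicates were kept, and a region was removed if it shared 1 bp with a peak of either replicate of the other groups. Of the other 469 regions, 290 had a glucose peak (254 of these also had a laboratory peak) and 179 had a laboratory peak but no glucose peak. These 469 are called shared regions. The absence from a list, the fold enrichment and the rank of a region all belong to the lists that chose it, so they are given as a description without a test.

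Scr1 was measured by chromatin immunoprecipitation and sequencing (ChIP-seq) of a TAP-tagged protein with an antibody against Protein A, a part of the tag, in 3 groups with 2 biological replicates each. Wilmar-P Scr1-TAP, an industrial S. pombe strain obtained by passaging a wild isolate through molasses fermentations (labelled h90 scr1::TAP-KanMX6), was grown in molasses or in rich medium (YES) with 3% glucose, and the laboratory strain was grown in molasses. The labels name the laboratory strain 972h- Scr1-TAP, but give it the mating type h+ and the markers ura4-d18, leu1-32 and ade6-m216, which the Wilmar-P label lacks, so strain and markers cannot be told apart. All 3 groups carry the tag, linked to KanMX6. No untagged control was analysed here, and the number of tagged clones is not given in the sources used here. Cells were first grown in glucose medium and then moved to the medium of their group.

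Scr1 is a zinc finger repressor related to Mig1 of budding yeast. In glucose it binds upstream of genes for the use of other carbon sources and represses them with the corepressors Tup11 and Tup12, and it leaves the nucleus when glucose is short. Mig1-type proteins bind GC-rich hexamers, here written as the Mig1-type motif: CTGGGG or CCGGGG, and the same letters with G in the first place, GTGGGG or GCGGGG. Molasses is a sugar cane by-product rich in sucrose, glucose and fructose.

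The files gave positions, fold enrichment and significance of peaks and no read numbers, so depth is unknown and a missing peak says only that none was called. On chromosomes I, II and III there were 961 peaks in replicate 1 and 1073 in replicate 2 of Wilmar-P in molasses. Wilmar-P in glucose had 386 and 228, and the laboratory strain had 4239 and 4479. The molasses lists are far longer than the sets of binding sites that the paper reports after a correction across replicates. The laboratory peaks covered 18.3% and 19.4% of the genome and 90.8% and 91.5% of their summits lay in coding exons, so the rule removed coding sequence more often than other sequence.

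The reference sequence around the summit of replicate 1 is shown for 3 of the best ranked regions, upstream of bfr1 (an efflux transporter), isu1 (iron-sulfur cluster assembly) and ags1 (cell wall synthesis), since the results on position and motifs rest on such windows. The sequences are those of the laboratory reference (ASM294v3, whose chromosomes I to III have the same lengths as in the authors' build), plus strand, cut where the gene begins. Wilmar-P carries sequence variants and, as the paper reports, a duplicated stretch of chromosome III. Neither was taken into account here. Capitals mark the Mig1-type motif, the box CCAAT of the Php complex, the forkhead motif GTAAACA, the HomolD box CAGTCAC of core promoters and the cAMP response element core TGACGT of the Atf1-Pcr1 factor, on either strand.
bfr1, chrIII:715419-715608: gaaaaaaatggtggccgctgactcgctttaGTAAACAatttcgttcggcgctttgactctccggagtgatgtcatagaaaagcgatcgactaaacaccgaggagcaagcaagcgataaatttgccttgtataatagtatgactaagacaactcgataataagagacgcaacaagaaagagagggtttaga
isu1, chrI:519052-519252: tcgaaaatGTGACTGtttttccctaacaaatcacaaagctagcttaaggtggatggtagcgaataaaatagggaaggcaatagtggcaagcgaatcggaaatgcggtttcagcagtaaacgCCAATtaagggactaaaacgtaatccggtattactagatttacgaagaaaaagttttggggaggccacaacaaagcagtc
ags1, chrIII:1372851-1373051: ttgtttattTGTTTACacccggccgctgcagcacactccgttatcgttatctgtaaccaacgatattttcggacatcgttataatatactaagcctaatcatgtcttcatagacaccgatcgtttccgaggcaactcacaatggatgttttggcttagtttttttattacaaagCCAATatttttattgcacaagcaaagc
The window of bfr1 held a forkhead motif and none of these Mig1-type hexamers, although it held the wider form described with the motifs. That of isu1 held a HomolD box and a Php box, and that of ags1 a forkhead motif and a Php box.

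Enrichment in the molasses-alone regions was moderate and repeated between replicates. The fold enrichment over background had a median of 3.82 in replicate 1 (range 1.56 to 23.3) and 3.11 in replicate 2 (range 1.36 to 15.8). It was higher in replicate 1 in 361 of the 382 regions. In the regions with a glucose peak the medians were 14.1 and 10.3, and in those with a laboratory peak only they were 2.28 and 2.13. The molasses-alone regions lay between these classes in enrichment and were the narrowest, with a median width of 302 bp against 737 bp and 552 bp. Width is not independent of the rule, since a wider region is more likely to share 1 bp with a peak of another list. Across the 382 regions Spearman's correlation of the enrichment in the 2 replicates was 0.94, over points that share both libraries. The summits of the replicates were a median of 10 bp apart and within 50 bp of each other in 358 regions. The IDR of a region estimates, from the ranks in both replicates, the irreproducible share among all regions scored at least as well. It was fitted on the 851 regions, which were already required to have a peak in both replicates. It was at most 0.05 in 316 molasses-alone regions (82.7%), against 92.8% of the regions with a glucose peak and 46.4% of those with a laboratory peak only.

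**Figure D1:**
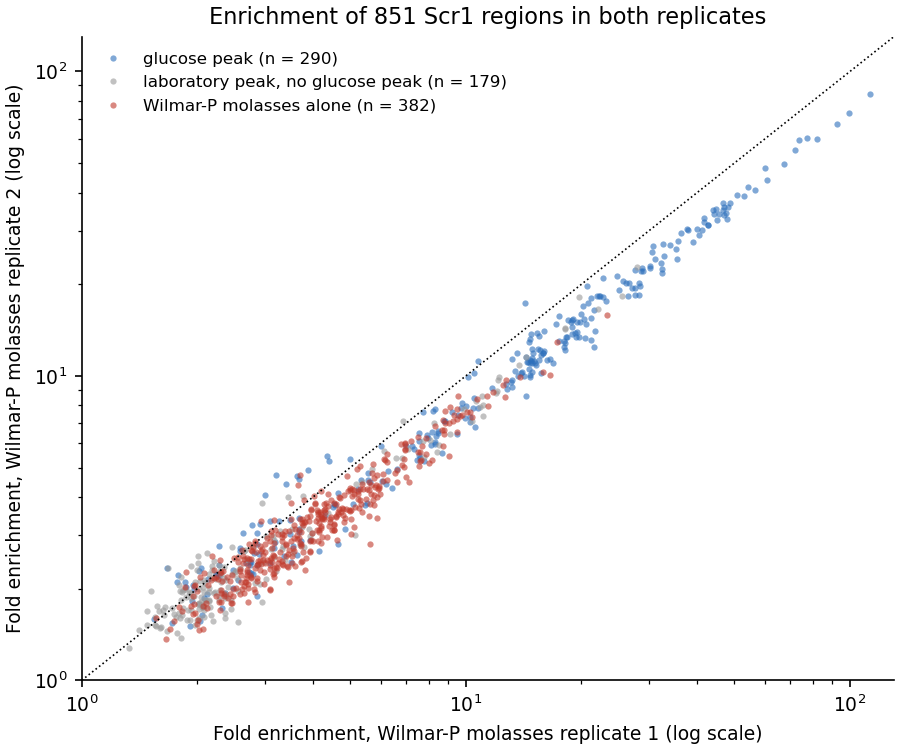
Fold enrichment of each of the 851 regions in Wilmar-P molasses replicate 1 (x) and replicate 2 (y), both on log axes; the dotted line marks equal values. The 382 molasses-alone regions (red) lie mostly between 2 and 10 and mostly below the line.

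In the order of mean rank by p over both replicates, the first 109 regions held no molasses-alone region. The best 100 held 97 with a glucose peak. Molasses-alone regions made up 10 of the next 100, and their share was highest, 78 of 100, among regions 401 to 500. It dropped again to 9 of the last 51, of which 38 had a laboratory peak only. The strongest Scr1 regions of Wilmar-P in molasses were thus shared with glucose, and the weakest mostly with the laboratory lists.

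**Figure D2:**
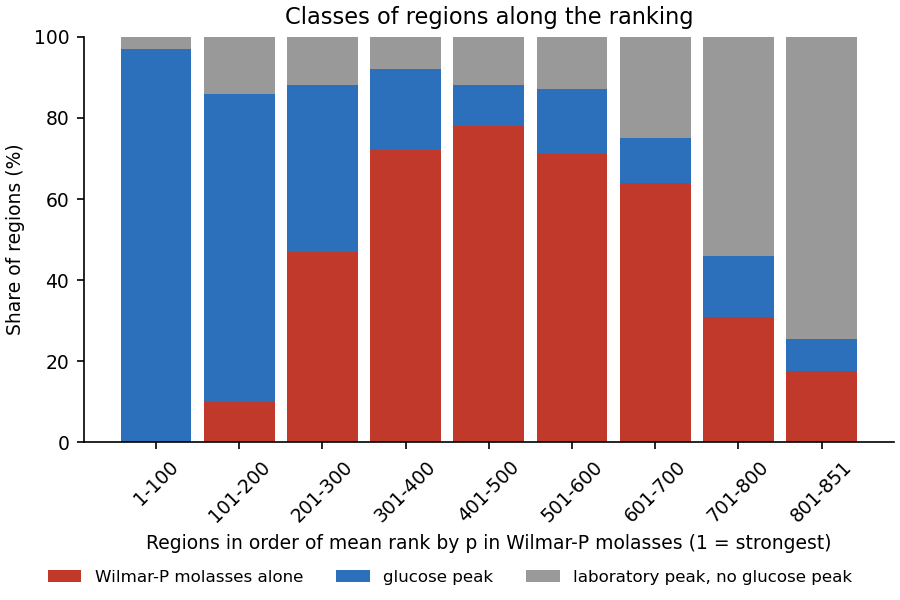
Share of the 3 classes (y, %) in successive bins of 100 regions ordered by mean rank by p in Wilmar-P molasses (x; the last bin holds 51). Molasses-alone regions (red) are absent from the first bin and form the largest class from regions 201 to 700.

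The best ranked molasses-alone region was at chrII:3011947-3012380 (ranks 97 and 120). Its enrichment was 23.3 in replicate 1 and 15.8 in replicate 2. The summit lay in the annotated 5′ UTR of gsf1, a zinc finger transcription factor gene known for flocculation control, 648 bp after the annotated start of the gene and 774 bp before its start codon. A region with a glucose and a laboratory peak lay 391 bp away and was enriched 44.3-fold and 34.1-fold.

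The second was at chrIII:715173-715667, 90 bp upstream of bfr1, which encodes an ABC transporter that exports brefeldin A. Its enrichment was 17.3 and 12.9. Upstream of the same gene, 390 bp from this region and 906 bp from the gene start, a region with both a glucose and a laboratory peak was enriched 30.1-fold and 22.9-fold. bfr1 was therefore not free of peaks in the other groups, and the molasses-alone region was the one nearer to its start.

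The third, at chrIII:207565-208093, lay in the 3′ UTR of SPCC1235.17, with enrichment of 12.7 and 8.53 and a shared region 306 bp away that was enriched 44.8-fold and 35.4-fold. The fourth lay 92 bp upstream of hmt2, the mitochondrial sulfide-quinone oxidoreductase, and was enriched 15.9-fold and 10.3-fold. Its nearest shared region was 2337 bp away and was enriched 2.32-fold and 1.72-fold.

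Of the 20 best ranked molasses-alone regions, 11 lay upstream of a protein-coding gene and 8 lay less than 1000 bp from a shared region. Among those farther away were the regions 287 bp upstream of gaf1, a GATA-type factor of nutrient signalling (13.8 and 9.90; 144 bp from a laboratory peak), and 715 bp upstream of mam1, the exporter of the mating pheromone M-factor (11.7 and 8.87). Those upstream of ags1, the cell wall alpha-glucan synthase (146 bp; 10.1 and 7.62), and of rcf2, a cytochrome c oxidase subunit (114 bp; 9.79 and 7.43), were also farther away. The region 201 bp upstream of isu1, the scaffold on which iron-sulfur clusters are built, was enriched 10.4-fold and 7.34-fold, with a region of 2.23-fold and 1.95-fold enrichment 431 bp away. The region 55 bp upstream of ssb1, the large subunit of replication protein A, was enriched 8.69-fold and 6.63-fold, lay 37 bp from a laboratory peak and was also in the 5′ UTR of mik1, a kinase that inhibits Cdc2. The remaining ones with a gene were upstream of knh4 (6.10 and 4.51), of SPCC965.13, annotated as a pyridoxal family transporter (11.4 and 8.58), and of SPAC11D3.19, annotated as uncharacterized (9.56 and 8.59).

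The other 9 were not upstream of a protein-coding gene. Among these, chrII:1266582-1266952 (16.6 and 10.1) lay 1078 bp from a shared region upstream of but2 (27.6 and 22.3), and chrII:2301835-2302478 (12.7 and 9.67) lay 486 bp from one upstream of pfk1, the phosphofructokinase gene (34.0 and 26.9). In both pairs the shared region was the stronger. The region chrI:3879979-3880501 (12.5 and 9.30) was stronger than its neighbour 2615 bp away, upstream of the proton pump gene pma1 (10.4 and 7.86). The regions chrII:1149309-1149777 (8.82 and 7.00) and chrII:4108119-4108768 (11.4 and 7.94) lay in noncoding RNA genes.

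Another 2 of the 20 lay close to the right end of chromosome II, at chrII:4533213-4533464 (4.28 and 3.64) and chrII:4537032-4537459 (3.91 and 3.34). Their enrichment was the lowest of the 20 in replicate 1, although their −log10 p of 296 and 393, and of 253 and 311, ranked them high. Wilmar-P lacks parts of the chromosome II subtelomeres and carries others rearranged, and reads of repeats there cannot be placed with certainty. In all, 16 of the 382 molasses-alone regions lay within 50 kb of a chromosome end. This held for 20 of the 290 regions with a glucose peak and 9 of the 179 with a laboratory peak only. The share was thus not higher in the molasses-alone regions.

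Over the whole set, 96 of the 382 regions (25.1%) lay less than 1000 bp from a shared region and 65 less than 500 bp. The enrichment of these 96 regions, with medians of 3.92 and 3.12, lay beside medians of 3.78 and 3.11 in the other 286. A laboratory peak lay less than 1000 bp away in 256 regions and a glucose peak in 59. At the edge of the rule, 4 regions lay within 50 bp of a laboratory or glucose peak. The nearest were at chrI:2178238-2178463, 2 bp from a laboratory peak (3.16 and 2.18), at chrII:3979216-3979492, 14 bp away (2.46 and 2.21), and at chrIII:1670643-1671174, 29 bp away (4.38 and 4.08). Just outside the rule were regions at chrII:966463-966816, which shared 6 bp with a laboratory peak (3.91 and 3.14), at chrIII:539766-540054 with 47 bp (1.59 and 1.68) and at chrI:5412032-5412586 with 57 bp (3.16 and 2.54).

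Most molasses-alone regions lay upstream of genes. On chromosomes I, II and III there were 142, 156 and 84 of them, or 25.5, 34.4 and 34.2 per Mb. By the summit of replicate 1, 230 of the 382 (60.2%) were upstream of a protein-coding gene, meaning outside coding exons and within 1000 bp before an annotated gene start, and 41 of these were upstream of 2 genes. The nearest start was a median of 170.5 bp away. The share of all genome positions that are upstream by this definition was not determined. How far 60.2% lies from it is therefore not known, and the rule itself removed coding sequence more often. Summits fell in genes for noncoding RNAs, outside protein-coding genes, in 194 regions (50.8%). This share was 54.5% in the regions with a glucose peak, 14.0% in those with a laboratory peak only and 12.9% of the genome. Intergenic sequence held 89 summits (23.3%) and coding exons 30 (7.85%, against 56.9% of the genome). The rest lay in 3′ UTRs in 34, in 5′ UTRs in 17, in tRNA genes in 15 and in introns in 3. The pooled upstream share was not told apart by the test from that of the regions with a glucose peak (160 of 290, 55.2%; difference 5.04 points, adjusted p = 0.259, Fisher's exact test, two-sided, Benjamini-Hochberg over 10 tests). The pooled value covered differences of both signs along the ranking. When all regions were divided by p into 3 groups of nearly equal size, the upstream share of molasses-alone regions and of those with a glucose peak was 46.9% and 65.1% in the strongest group, 66.5% and 48.9% in the middle one and 55.1% and 5.56% in the weakest. In the lower ranked 0.5 of all regions the difference was 38.4 points (exact adjusted p = 5.08e-07). In the regions with a laboratory peak only the share was 16.8% (30 of 179; difference 43.4 points, exact adjusted p = 2.76e-22). The mostly coding laboratory peaks define that class, so this difference partly follows from the rule and its p-value is no independent support.

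**Figure D3:**
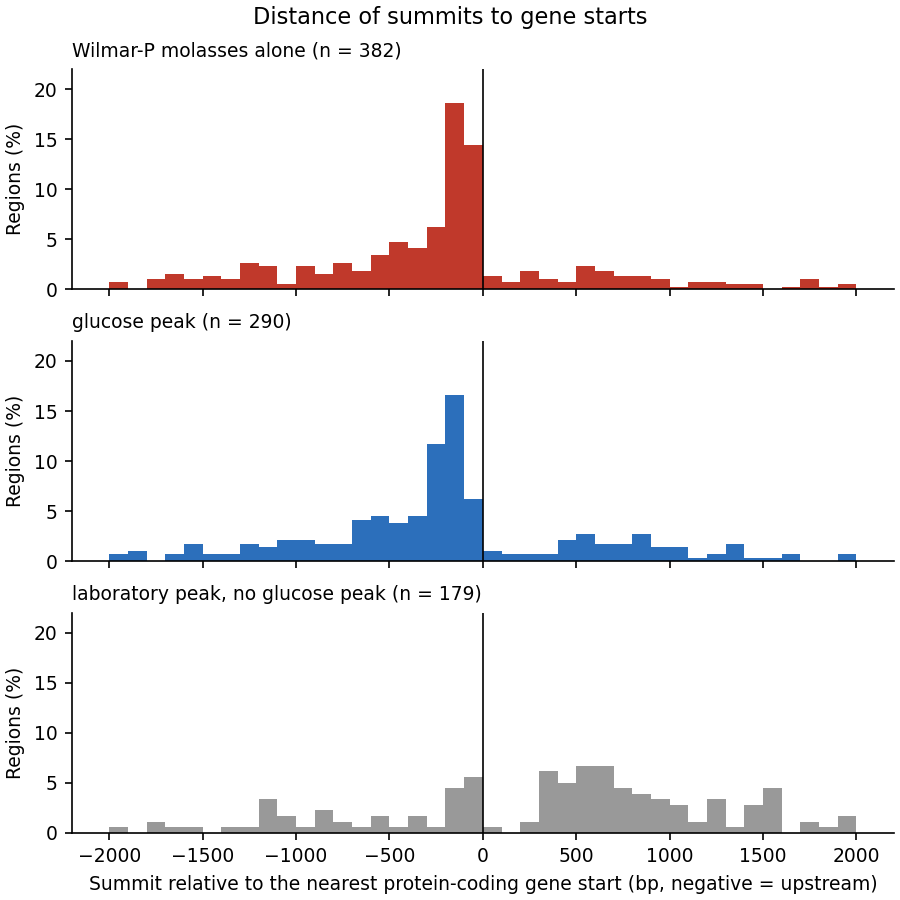
Summits of replicate 1 relative to the nearest protein-coding gene start (x, bp in bins of 100, negative is upstream) as a share of the regions of each class (y, %). Of the molasses-alone regions 33.0% lie in the 200 bp before a start, against 22.8% of those with a glucose peak and 10.1% of those with a laboratory peak only.

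Coding exons held a smaller share of molasses-alone summits (7.85%) than of those with a glucose peak (54 of 290, 18.6%; exact adjusted p = 1.01e-04) or with a laboratory peak only (117 of 179, 65.4%; exact adjusted p = 6.08e-45). These position tests are not independent of the rule, because the mostly coding laboratory peaks were used to remove regions. With laboratory peaks of at least 2.5-fold enrichment only, the coding share was 25.4%, against 18.6% of the regions with a glucose peak (exact adjusted p = 0.0684), and neither difference from the regions with a laboratory peak only held (upstream 17.3 points, coding −14.6 points, exact adjusted p = 0.127 for both). The glucose replicates differed as well. Without Wilmar-P glucose replicate 1, whose peaks lay in coding exons in 35.0% against 8.33% in replicate 2, the coding shares were 7.75% and 6.57% and the upstream share was lower than in the regions with a glucose peak by 9.95 points (exact adjusted p = 0.0322).

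The 230 regions were upstream of 263 of 5113 protein-coding genes (5.14%), and 255 of these genes had no shared region upstream. Of the other 8 genes, 6 also had a region with a glucose peak upstream (bfr1, gpd1, exg1, amt1, loc1 and pmp20) and 2 one with a laboratory peak only (mtl2 and zfs1). Of all 5113 genes, 186 had a glucose-peak region upstream and 33 a laboratory-only one, so lacking a shared region upstream is common to most genes. A gene without one can still have a shared region nearby: the region of gsf2 lay 252 bp from one. A pair of molasses-alone regions was found upstream of 8 genes, among them ppk9, hem1, leu2 and nic1. The 18 gene lists examined held 53 of the 263 genes. Each count of genes with a molasses-alone region below is read against the 5.14% of all protein-coding genes. A count of genes with a glucose-peak region is read against 186 of 5113 instead. The enrichment of a list is read against the medians of 3.82 and 3.11 of all molasses-alone regions. The lists are short and partly overlap, and their shares were not tested. They were written with earlier results of these data known. From these samples the paper already reports drug response, transporter, iron transport and meiosis genes among those bound only in Wilmar-P. The shares of such lists are therefore no independent support.

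**Figure D4:**
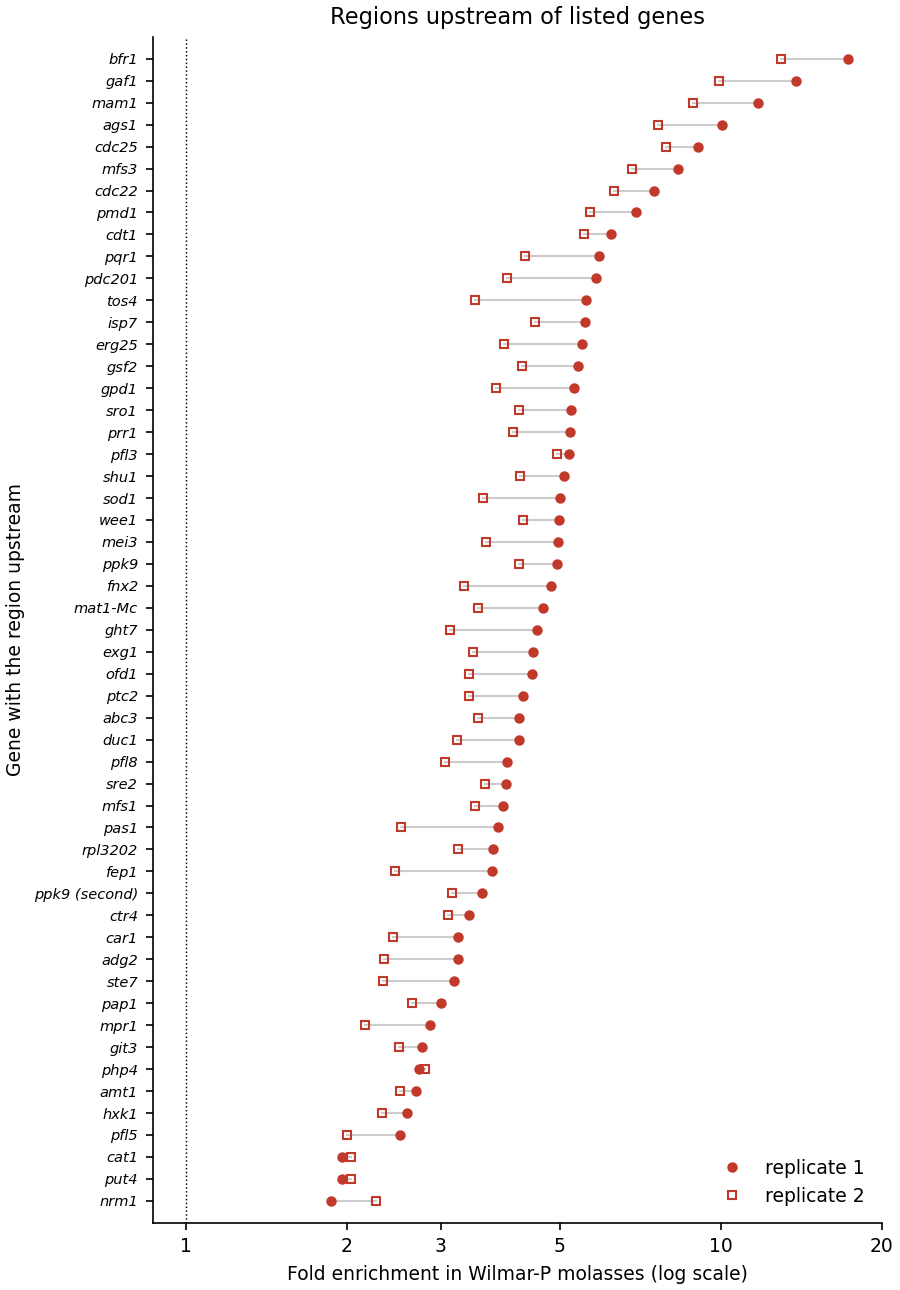
Fold enrichment (x, log axis) in Wilmar-P molasses replicate 1 (filled) and replicate 2 (open) of the molasses-alone regions upstream of 52 genes of the lists (y); a second region of the same gene is marked, and genes that face away from each other can share a region. Values run from 17.3 and 12.9 at bfr1 to 1.87 and 2.27 at nrm1.

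Regulators of transcription were among the genes with a molasses-alone region. Among the transcription factors that the study names, a list it chose on these samples and so no independent support, 3 with a region are described. Besides gaf1 (13.8 and 9.90) these were prr1, a heat shock factor-like regulator of the oxidative stress response (114 bp; 5.23 and 4.10), and sre2, a membrane-tethered relative of the sterol regulator Sre1 (103 bp; 3.96 and 3.63). Of 49 genes listed as other sequence-specific factors 5 had one (10.2%), with median enrichments of 3.00 and 2.64. The list is not complete. Outside it, sak1, annotated as a DNA-binding transcription factor, had a region (4.69 and 3.97). So did SPBC530.11C (4.79 and 3.48) and SPCC320.03 (4.13 and 3.41), both annotated as transcription factors. The 5 of the list were tos4 (5.60 and 3.47) and nrm1 (1.87 and 2.27), both of the G1/S programme, the iron regulators fep1 (3.74 and 2.46) and php4 (2.73 and 2.80), and pap1, the oxidative stress factor (3.00 and 2.64). The annotation gives php4 as a repressor of the CCAAT-binding complex and nrm1 only as a protein. Not all 5 are therefore annotated as binding DNA themselves.

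Of 24 genes of the Sty1 stress kinase pathway, 4 had a molasses-alone region (16.7%): prr1 and pap1, the phosphotransferase mpr1 (2.86 and 2.16) and the phosphatase ptc2 (4.27 and 3.39). The region of ptc2 had its summit in a tRNA gene. The median enrichments of this list were 3.64 and 3.02. Of 30 stress effectors 3 had one: gpd1, a glycerol-3-phosphate dehydrogenase of the osmotic response (5.32 and 3.80), the superoxide dismutase gene sod1 (5.01 and 3.59) and sro1 (5.25 and 4.19), with medians of 5.25 and 3.80. Upstream of gpd1 there was also a region with a glucose peak. A region with a glucose peak lay upstream of 8 of the 30 stress effectors, gpd1 included.

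Of 17 genes for drug efflux and other ABC or MFS transporters, 7 were upstream hits (41.2%), against 1 for the regions with a glucose peak. They were bfr1 (17.3 and 12.9), the spermidine transporter gene mfs3 (8.33 and 6.82), pmd1, an ABC exporter of leptomycin (6.94 and 5.70), the vacuolar amino acid transporter gene fnx2 (4.82 and 3.32), abc3 (4.20 and 3.52), mfs1 (3.92 and 3.47) and car1 (3.23 and 2.44). The annotation gives car1 as arginase, so this hit is no transporter, and bfr1 also had a shared region. Of 17 amino acid and nitrogen transporters 3 had one (17.6%), with 1 region at 1.96-fold and 2.04-fold between cat1 and put4 and 1 of 2.69-fold and 2.52-fold upstream of the ammonium transporter gene amt1, which also had a region with a glucose peak.

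Genes of the cell cycle had 6 hits among 27 (22.2%), with median enrichments of 5.61 and 4.92, above those of all molasses-alone regions. They included both opposing regulators of entry into mitosis, the phosphatase cdc25 (454 bp; 9.07 and 7.90) and the kinase wee1 (420 bp; 4.99 and 4.28). The others were cdc22, the large subunit of ribonucleotide reductase (7.50 and 6.32), the replication licensing factor cdt1 (6.23 and 5.56), the cyclin pas1 (3.83 and 2.53) and duc1 (4.20 and 3.21). The region of cdc25 lay in the 3′ UTR of hxk1, the hexokinase gene beside it.

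Of 20 genes of flocculation and the cell surface 6 had a molasses-alone region: sre2, the ribosomal protein gene rpl3202 (3.76 and 3.23), the flocculin gene gsf2 (5.41 and 4.25) and the related pfl3 (5.20 and 4.95), pfl8 (3.99 and 3.05) and pfl5 (2.52 and 2.0). With the region in the leader of gsf1, both that regulator and gsf2 carried one. The region of rpl3202 lay 439 bp from its start and nearer, 104 bp, to the start of hob2. Of the genes of cell separation and septum, ags1, the glucanase gene exg1 (4.46 and 3.45) and adg2 (3.23 and 2.34) had one. Reads of the repetitive flocculin genes can be placed at a wrong copy, so these values are uncertain.

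Genes of iron use had 5 hits among 19 (26.3%): fep1, php4, shu1 for haem uptake (5.10 and 4.21), abc3 (4.20 and 3.52) and ctr4, a copper transporter subunit (3.38 and 3.09), whose region had its summit in a tRNA gene. Another 7 iron genes had a region with a glucose peak upstream. Of 15 genes of sterol synthesis and the oxygen response 3 had one: sre2, the Sre1 regulator ofd1 (4.44 and 3.38) and erg25 (5.51 and 3.93). Of 37 genes of mating and meiosis 5 had one (13.5%): mam1, the meiosis inducer mei3 (4.96 and 3.64), isp7 (5.59 and 4.49), ste7 (3.17 and 2.33) and mat1-Mc (4.64 and 3.52), whose mating type locus has near-identical copies and differs between these strains. The region of mat1-Mc lay 920 bp from its start and nearer, 487 bp, to the start of rga7.

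Among 8 hexose transporters 1 had a molasses-alone region, ght7 (562 bp; 4.53 and 3.11), and 4 had a region with a glucose peak. Among 17 glycolytic genes 2 had one, hxk1 (2.59 and 2.33) and the pyruvate decarboxylase gene pdc201 (5.85 and 3.99), and 10 had a region with a glucose peak. Among 23 genes of carbon catabolite regulation 2 had one, hxk1 and the kinase gene ppk9 with a pair of regions (4.95 and 4.20; 3.59 and 3.14), and 6 had a region with a glucose peak. Among 16 genes of the glucose-cAMP pathway 1 had one, the glucose receptor git3 (2.76 and 2.5), and 4 had a region with a glucose peak. The phosphate list had 1 of 10, pqr1 (5.92 and 4.30), and the list of TOR and nutrient signalling had 0 of 21.

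A group of molasses-alone regions was set on tRNA genes. In 16 of the 382 (4.19%, 95% Wilson interval 2.59 to 6.69%) a tRNA gene lay no more than 200 bp from the summit, and 15 summits were inside one. With a glucose peak this was so in 1 of 290 regions (0.345%, interval 0.0609 to 1.93%), a smaller share (adjusted p = 0.00162, Fisher's exact test, two-sided). With a laboratory peak only it was so in 6 of 179 (3.35%, interval 1.55 to 7.12%; exact adjusted p = 0.816). Against the regions with a glucose peak the difference did not pass the exact test among the lower ranked 0.5 of all regions by p (6.11% against 1.79%, adjusted p = 0.354) or with a reciprocal overlap of 0.5 (adjusted p = 0.292).

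The 3 best ranked tRNA regions were at chrII:1597991-1598190 on a methionine tRNA gene (4.27 and 3.79), at chrIII:1102751-1102981 on a leucine tRNA gene (3.70 and 4.72) and at chrII:1598502-1598874 on another leucine tRNA gene (4.05 and 3.84). Over all 16, the enrichment ranged from 2.82 to 4.27 in replicate 1 and from 2.84 to 4.72 in replicate 2, a narrow band within the set. Replicate 2 was the higher one in 4 of the 16. Chromosome III held 11 of them and chromosome II 5, whereas chromosome I held 0, although 56 of the 171 tRNA genes lie there. tRNA genes with near-identical copies share reads, so the copy that was bound cannot be told from these lists.

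The Mig1-type motif was found within 100 bp of the summit in 50 of the 382 molasses-alone regions. The sites of the 5 best ranked of these are shown with the motif in capitals, which reads CCCCAG or CCCCAC where it lies on the other strand.
gsf1 leader, chromosome II: tggatagttgtgCCCCAGcttcgtctcctc
mam1, chromosome II: atcttcagaaatCTGGGGaacggacaaatg
SPCC965.13, chromosome III: agttacgttggaCTGGGGtggctagattca
fyu1, chromosome III: gtacggcgaaaaCCCCACcaattgatttcc
SPAC23H4.05c region, chromosome I: tgcggttttgccGTGGGGcgttcccgtgga
Their enrichments were 23.3 and 15.8 in the gsf1 leader, 11.7 and 8.87 for mam1, 11.4 and 8.58 for SPCC965.13, 9.63 and 7.39 for fyu1, an enzyme that makes UDP-glucose, and 9.49 and 7.80 at SPAC23H4.05C. The cAMP response element core TGACGT, the site of Atf1-Pcr1, was found in 34 regions, and its 5 best ranked are shown in the same way.
hmt2, chromosome II: agtcgataactcACGTCAgctccgaaggcg
cdc25, chromosome I: acataagaacaaACGTCAggtaacctgctt
rtc3, chromosome II: tcaaactcttacTGACGTgggccattgcgt
psy1, chromosome III: ccgagctttgtgTGACGTagcagtgtttac
cid13, chromosome I: ttctTGACGTttTGACGTtaaatagcgtga
These belonged to hmt2 (15.9 and 10.3), cdc25 (9.07 and 7.90), rtc3 (7.90 and 6.24), psy1, a membrane fusion protein of the plasma membrane (6.25 and 5.23), and cid13, a poly(A) polymerase (5.65 and 4.08), whose site stood beside another copy. Only 6 regions held both motifs, and 304 held neither. A motif match describes the reference sequence and is not evidence of the factor.

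The molasses-alone regions held both motifs less often than the regions shared with glucose. The Mig1-type motif was present in 13.1% of them (Wilson interval 10.1 to 16.8%), against 27.6% of the regions with a glucose peak (interval 22.8 to 33.0%; adjusted p = 1.03e-05, Fisher's exact test, two-sided) and 8.94% of those with a laboratory peak only (interval 5.58 to 14.0%; adjusted p = 0.233). The share was 5.38% of all 62545 genome windows of 201 bp and 5.09% of the 201 bp windows before 5112 gene starts. TGACGT was present in 8.90% (interval 6.44 to 12.2%), against 21.0% (interval 16.7 to 26.1%; exact adjusted p = 2.63e-05) and 7.26% (interval 4.29 to 12.0%; exact adjusted p = 0.694), with 3.22% of genome windows and 4.83% of windows before gene starts. The windows also differed in base composition, with a median GC content of 39.3% in molasses-alone regions and 43.8% in both other classes, and the part of this in the motif shares was not tested.

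When all 851 regions were divided by p into 3 groups of nearly equal size, the Mig1-type motif was in 8 of 49 molasses-alone regions (16.3%) and in 63 of 209 with a glucose peak (30.1%) of the strongest group. In the middle group it was in 26 of 206 (12.6%) and 13 of 45 (28.9%), and in the weakest in 16 of 127 (12.6%) and 4 of 36 (11.1%). In the lower ranked 0.5 of all regions, neither motif passed the exact test against the regions with a glucose peak (Mig1-type 12.7% against 19.6%, adjusted p = 0.283; TGACGT 8.73% against 8.93%, adjusted p = 1). Against regions with a laboratory peak only, the Mig1-type motif was more frequent by the exact test without Wilmar-P molasses replicate 1 (13.3% against 8.05%, adjusted p = 0.0296) or without laboratory molasses replicate 1 (13.7% against 7.14%, adjusted p = 0.0445). With all lists it did not pass the exact test (adjusted p = 0.233). The p-values were adjusted within each alternative and not over all of them.

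**Figure D5:**
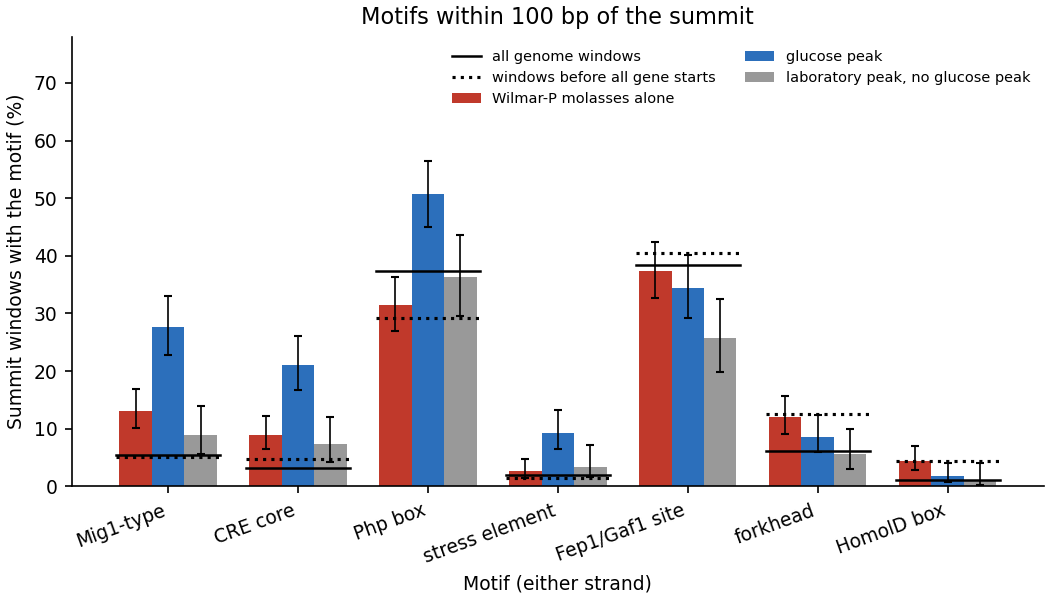
Share of 201 bp summit windows (y, %) that hold each of 7 motifs (x) in the 3 classes, with 95% Wilson intervals; solid lines give the share of all genome windows and dotted lines that of windows before gene starts. Molasses-alone regions (red) hold the Mig1-type motif in 13.1% and the CRE core in 8.90%, above both lines.

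In all, 15 motifs were compared on both strands, with p-values of Fisher's exact test adjusted over 30 tests. Besides the 2 above, the molasses-alone regions held 4 others less often than the regions with a glucose peak. The wider Mig1-type motif also allows A in the fifth place (CTGGAG or CCGGAG, and the same with G first) and contains the narrower one. It was in 24.1% against 49.3% (exact adjusted p = 4.49e-10), with 17.2% of genome windows. The Php box CCAAT was in 31.4% against 50.7% (exact adjusted p = 7.52e-06), with 37.4% of genome windows and 29.2% of windows before gene starts. The stress element CCCCTC bound by Rst2 was in 2.62% against 9.31% (exact adjusted p = 0.00142), with 1.96% of genome windows. ATGACG, which overlaps TGACGT, was in 48 of 382 against 58 of 290 (exact adjusted p = 0.0439), with 4.10% of genome windows, and missed the threshold without Wilmar-P glucose replicate 2 (exact adjusted p = 0.0737). Its direction turned in the lower ranked 0.5 of all regions (11.4% against 3.57%, exact adjusted p = 0.388) and against glucose regions with no laboratory peak (12.6% against 5.56%, exact adjusted p = 0.694).

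The site of GATA factors such as Fep1 and Gaf1 (AGATAA or CGATAA or TGATAA) was more frequent than in regions with a laboratory peak only (37.4% against 25.7%, exact adjusted p = 0.0360) and near the 38.5% of genome windows. Without Wilmar-P molasses replicate 2 the exact adjusted p was 0.0518, and where coding summits were left out of every class the difference was −0.324 points. The forkhead motif GTAAACA was in 12.0%, close to the 12.6% before gene starts and above the 6.20% of genome windows. In regions with a laboratory peak only it was in 5.59% (exact adjusted p = 0.0533). That difference passed the exact test without Wilmar-P molasses replicate 1 (11.0% against 3.74%, adjusted p = 6.49e-04) and without replicate 2 (11.8% against 5.48%, adjusted p = 0.0356). The Pap1 site TTACGTAA was in 0 molasses-alone regions and in 5 of 290 with a glucose peak (exact adjusted p = 0.0533), and passed without Wilmar-P molasses replicate 2 (exact adjusted p = 0.0359) and without Wilmar-P glucose replicate 1 (exact adjusted p = 0.0144).

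Against regions with a laboratory peak only, CCAAT was less frequent by the exact test without Wilmar-P molasses replicate 1 (31.9% against 43.1%, adjusted p = 0.00490) and without replicate 2 (30.1% against 40.2%, adjusted p = 0.0375), and ATGACG more frequent without replicate 1 (12.4% against 5.17%, adjusted p = 0.00186). With all lists, neither passed (exact adjusted p = 0.468 and 0.512). The HomolD box CAGTCAC was in 4.45%, close to the 4.38% before gene starts. No difference between classes passed the test for it or for the TR box ACAAAGA of Ste11, the MCB element ACGCGT, the CSL site GTGGGAA and the heat shock element GAANNTTC. Their shares of genome windows were 1.12% for HomolD, 5.67% for the TR box, 1.34% for each of MCB and CSL and 8.79% for the heat shock element.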

How the data were processed

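Scr1 ChIP-seq of Wilmar-P in molasses, Wilmar-P in glucose and laboratory S. pombe in molasses was analysed, with 2 biological replicates each (6 of 15 samples). Per the submitters' processing notes, the tools were CASAVA 1.8.4, cutadapt 1.9.1, FastQC, Bowtie2 2.3.1, MACS2 2.1.1 and deepTools, with build ASM294v2. The authors called peaks with MACS2 per replicate, and the deposited lists give fold enrichment over background at the summit, a −log10 p-value and a −log10 q-value. For its binding sites the paper coupled peak calling with an input sample and an IDR correction across replicates. The lists used here hold many more peaks than those sites, so the regions described here are not the paper's set of sites. Depths are unknown and all Wilmar-P positions are on the laboratory reference.

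Peaks on chromosomes I, II and III were merged at an overlap of 1 bp. Regions were placed by the summit of replicate 1. Upstream means within 1000 bp before an annotated protein-coding gene start and outside coding exons, tRNA regions lie within 200 bp of a tRNA gene, and motifs were searched on both strands within 100 bp of the summit in the ASM294v3 reference and annotation. For shares of region classes the two-sided Fisher's exact test was used. Its p-values were adjusted after Benjamini and Hochberg over 10 tests (30 for motifs), with a threshold of 0.05. The p-values treat regions as units and do not measure the spread between cultures. No test of condition was made, since the lists hold called peaks without counts, and an exact permutation test of 2 against 2 replicates cannot go below 0.333. Intervals are 95% Wilson intervals.

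Named were the 20 regions of best mean rank by p, regions upstream of listed genes, the 3 best tRNA regions, the 3 regions nearest to each side of the rule, and the 5 best ranked regions with each of the Mig1-type motif and TGACGT. The members and lists were chosen with earlier results of these data known. Alternatives changed the overlap, gap, thresholds, windows and lists, and 3 of 22 were chosen after seeing the data. Inputs and RNA polymerase II libraries were not used here. An item withheld for evaluation is not reported here. Scripts were tested on simulated data. Python 3.11.15, numpy 2.4.6, pandas 2.3.3, SciPy 1.17.1 and matplotlib 3.10.9 were used.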

Additional observations from a re-analysis of the deposited data

Results flagged for a closer look

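On the separate sequence of the mating type region, named MTR in the lists and left out of the comparisons above, there was signal in Wilmar-P in molasses and no peak in glucose. Of 3 peaks in each Wilmar-P molasses replicate, 2 regions had a peak of both replicates, and 1 of these, at positions 19783 to 19991, overlapped no laboratory peak. Its enrichment was 3.70 in replicate 1 and 2.69 in replicate 2. The laboratory lists had 6 and 8 peaks on this sequence and the glucose lists 0 and 0. The mating type of these strains differs by their labels, and its part in this signal was not tested.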

How the results depend on the processing

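No paired analysis was possible because the results come from lists of peaks with no test across samples. Differences are given in percentage points, molasses-alone share minus the other share. Of the 382 regions, 33 were left when every list was shortened to its best 228 peaks, and 229 belonged to the lower ranked 0.5 of all regions. Leaving out 1 list at a time gave 384 to 448 regions. With equal list lengths no difference passed the test: upstream against laboratory only 16.2, coding −2.26 against glucose and −19.2 against laboratory only, tRNA 0, Mig1-type motif −18.5 and TGACGT −16.8 against glucose, with 33 regions in the set. In the lower ranked 0.5 the upstream share was higher than with a glucose peak by 38.4 points (adjusted p = 5.08e-07, Fisher's exact test), while tRNA (4.33), Mig1-type (−6.98) and TGACGT (−0.195) did not pass. With laboratory peaks of at least 2.5-fold enrichment, upstream against laboratory only was 17.3, and coding was 6.80 against glucose and −14.6 against laboratory only. With a reciprocal overlap of 0.5, coding against glucose was 4.40 and tRNA 2.58.

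Leaving out 1 list moved upstream against glucose between −9.95 and 5.64, coding against glucose between −12.2 and 1.18, and the Mig1-type motif against laboratory only between 3.20 and 6.60. Among alternatives chosen after seeing the data, leaving out regions within 1000 bp of a shared region gave 9.51 for upstream against glucose (adjusted p = 0.0311, Fisher's exact test). With glucose regions that had no laboratory peak, coding was 2.298, tRNA 1.41, Mig1-type −14.7 and TGACGT −2.21. ATGACG against glucose was 7.78 in the lower ranked 0.5 and 7.01 against glucose regions without a laboratory peak, and the GATA site against laboratory only was −0.324 outside coding exons. The causes of these changes were not tested. Over 11 main results, 175 recomputed values kept their direction and side of the threshold, 15 no longer passed it, 4 newly passed it, 5 turned direction and 2 counts moved by over 1.5 times. No depth was given, so a missing peak may be one that was not detectable.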

Other observations

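Several molasses-alone regions lay upstream of metabolic genes outside the lists. The genes below were chosen after their values were seen, are not a complete account of any pathway, and have no count or share to set against all genes. Of the pentose phosphate pathway, the glucose-6-phosphate dehydrogenase gene zwf1 of its oxidative branch had a region 143 bp upstream (7.13 and 4.47-fold enriched in replicates 1 and 2), and SPAC3C7.13C, annotated as the same enzyme, had one 607 bp upstream (5.61 and 4.23). The transketolase gene tkt1 of its non-oxidative branch had one 120 bp upstream (8.14 and 5.29), with a shared region 337 bp away.

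Among respiratory and mitochondrial genes, higher values were found for cir2, which passes electrons to ubiquinone (6.94 and 5.96), idh2 of the citric acid cycle (6.91 and 5.34, shared with mto2), the NADH dehydrogenase gene ndi1 (5.76 and 4.06), kgd1 (5.76 and 3.77) and cox8 (5.63 and 2.81, shared with med9). Intermediate and low values were found for the citrate synthase gene cit1 (5.03 and 3.02), the fumarase gene fum1 (4.26 and 3.44), the NADH dehydrogenase gene nde1 (2.70 and 1.80), cox14 (2.39 and 2.18) and the succinate dehydrogenase gene sdh1 (2.18 and 2.55). The region of cit1 was shared with SPAC6C3.03C and that of sdh1 with azr1. Among genes of amino acid synthesis, values ran from eca39, the branched chain aminotransferase (9.51 and 7.21), the glutamate synthase gene glt1 (8.77 and 6.63) and leu2 with a pair of regions (7.69 and 5.87; 2.97 and 2.58) through lys4 (4.72 and 3.57), cys2 (2.77 and 2.66), met9 (2.71 and 2.02) and lys9 (2.44 and 1.80) to the asparagine synthetase gene asn1 (2.07 and 1.47). The regions of eca39, glt1 and leu2 with the higher values lay 444 bp, 320 bp and 262 bp from a shared region. The region of asn1 also lay upstream of orm1. That of cys2 lay 695 bp from its start and nearer, 154 bp, to the start of rpl2501.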
